A study of Mus musculus with 8 samples.

Results

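The ADAM family (a disintegrin and metalloprotease) was followed in mouse epididymal fat after 4 weeks of daily prednisolone. Members were all genes whose symbol is Adam followed by a number, with an optional letter a or b, which leaves out the secreted Adamts proteases. Of the 22180 genes with an array probe set of 1 symbol, 32 were members. Each was read through its probe set with the highest mean, and dim members were kept. By known role they comprised 2 leukocyte members, 1 epididymal member, 7 widely expressed sheddases, 3 adhesion members of brain that lack protease activity, and 19 members of testis and sperm.

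Male C57BL/6 mice, housed singly, were weaned at 3 weeks of age onto an n-6 rich high fat diet with 45% of its energy as fat, and all 8 mice ate it to the end. From 6 weeks of age, 4 mice received prednisolone daily in sweet potato puree (the labels give the dose as 40 mg/kg/m2), and 4 vehicle mice received the puree alone. The left epididymal fat pad was taken at 10 weeks, and RNA of each mouse was hybridised to its own Affymetrix Mouse Gene 2.0 ST array. No other diet, dose or time is analysed here. All values below are deposited log2 expression values. Levels of different genes are not compared, since each probe set has its own response.

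ADAM proteins are membrane proteins with a metalloprotease domain, which some members have in inactive form, followed by a disintegrin domain. The active ones are sheddases: they cut the outer part of membrane proteins such as cytokine precursors, growth factors and receptors and release it. The prodomains of many members are removed by furin-like convertases, tissue inhibitors of metalloproteases block several members, and iRhoms and tetraspanins escort ADAM17 and ADAM10. Many mouse members are made mainly in spermatogenic cells or the epididymis, where they form complexes on the sperm surface. Prednisolone is a synthetic glucocorticoid that acts through the glucocorticoid receptor. The epididymal fat pad lies against the epididymis and testis.

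The 11 measured adipocyte markers had mean values between 9.99 and 13.91. The arrays also differed in genes of the neighbouring organs. Gpx5, a glutathione peroxidase of the caput epididymis, read 11.27, 13.81, 4.57 and 4.76 in prednisolone mice 1 to 4, against 13.78, 4.19, 8.69 and 13.61 in vehicle mice 1 to 4. A score over 24 spermatid markers, each centred on its own mean over the 8 arrays, was -0.37, -0.43, 0.64 and -0.46 in prednisolone mice 1 to 4, against 0.93, -0.56, -0.03 and 0.28 in vehicle mice 1 to 4. High and low values of both occurred in each treatment group. Vehicle mice 1 and 4 were high in both, prednisolone mouse 2 was high in Gpx5 with a low spermatid score, and prednisolone mouse 3 the reverse. In whole tissue, fewer cells of a type and less RNA per cell cannot be told apart.

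**Figure D1:**
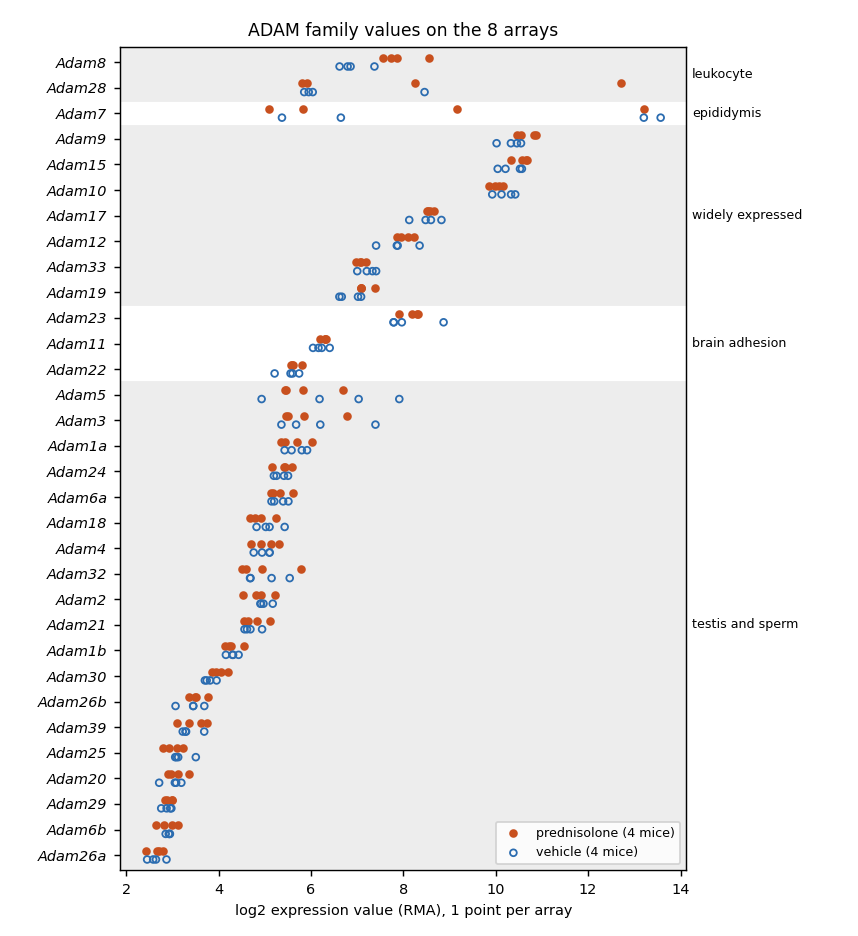
Log2 expression value (horizontal axis) of the 32 members on the 8 arrays, with filled points for the 4 prednisolone mice and open circles for the 4 vehicle mice, by role. Adam7 spreads most in both groups, Adam28 is wide among the prednisolone mice, most testis members sit close together at low values, and in Adam8 alone the groups do not overlap.

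No member passed the test between prednisolone and vehicle mice after adjustment over all genes. The limma test with Benjamini-Hochberg adjustment called 0 of 32 members, and 0% of the 22180 genes. At an unadjusted p under 0.05 there were 3 members (9.38%), Adam8, Adam9 and Adam19, each higher with prednisolone, beside 5.61% of all genes (3.51% higher and 2.1% lower). The prednisolone value was the higher in 19 members and the lower in 13, beside 12503 and 9677 of the 22180 genes. The median difference was 0.05, against 0.02 over all genes. Only 4 members differed by over 0.4 in either direction: Adam28, Adam7, Adam8 and Adam5. The following paragraphs take the members by role.

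Adam8, a membrane protease of myeloid leukocytes that sheds adhesion molecules and receptors, read 7.74, 7.86, 8.55 and 7.56 in prednisolone mice 1 to 4. It read 6.79, 6.86, 7.37 and 6.62 in vehicle mice 1 to 4. The groups did not overlap, with a narrow gap between prednisolone mouse 4 and vehicle mouse 3. The means were 7.93 ± 0.43 in prednisolone mice and 6.91 ± 0.32 in vehicle mice (SD, n = 4 each). The difference was 1.02 ± 0.24 (SE), a 2.03-fold higher value with prednisolone, and it did not pass the adjusted test (limma adjusted p = 0.791). It ranked 35 of 22180 genes by p. Adam8 was the only member without overlap between the groups, which is 3.12% of the members, beside 3.25% of all genes (1.99% higher and 1.25% lower).

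The sequence before the start of Adam8 is shown because Adam8 is the member with the lowest p for treatment. The sequence is the 250 bases before the start site on chromosome 7 in RefSeq's GRCm38.p6, chr7:139992563-139992812 on the minus strand, written 5′ to 3′ along the gene, with a GC box, the site that Sp1 binds, in capitals.
Adam8 promoter: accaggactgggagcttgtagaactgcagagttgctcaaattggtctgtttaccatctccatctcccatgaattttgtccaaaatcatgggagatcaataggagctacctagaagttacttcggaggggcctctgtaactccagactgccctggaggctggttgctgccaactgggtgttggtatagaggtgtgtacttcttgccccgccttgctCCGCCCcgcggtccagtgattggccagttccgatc
Motifs were searched on both strands in 18 such windows belonging to 16 members. The half-site of steroid hormone receptors, AGAACA, was not in the Adam8 window and was in windows of Adam1a, Adam20, Adam21 and Adam25, beside 16.1% of 32851 windows of all genes. The AP-1 site TGACTCA was in windows of Adam19 and Adam29 (4.46% of all windows), and the PU.1 site GAGGAAGT in that of Adam29 (2.44%). The GC box GGGCGG, added to the search after this sequence had been read, was in windows of Adam8, Adam10, Adam15 and Adam17 (32.7%). No motif contains another.

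Most macrophage markers had the same direction as Adam8. Of 21 measured, 20 had the higher value with prednisolone, beside 12503 of all 22180 genes. Of these 20 markers, 5 had an unadjusted p under 0.05 (3.51% of all genes were higher at that p), though none passed after adjustment. The largest of the 3 with the lowest p was Mmp12, macrophage elastase, with 1.07 ± 0.32. Clec7a, the beta-glucan receptor dectin-1, differed by 0.58 ± 0.12, and Lgals3, galectin-3, by 0.63 ± 0.20 (limma adjusted p = 0.791 for each of the 3). The macrophage score ran from 0.03 to 0.35 in prednisolone mice and from -0.51 to 0.40 in vehicle mice. Vehicle mouse 3 had the highest macrophage score of the 8 and the highest Adam8 of its group. Its Adam8, at 7.37, was still below that of every prednisolone mouse. Among these, prednisolone mouse 4 had a score of 0.03 and Adam8 at 7.56. The part of macrophages in the Adam8 difference was not tested. Over the 8 mice Adam8 had r = 0.793 with the score (exact permutation p = 0.0214, adjusted p = 0.316) and rho = 0.690 (p = 0.0694, adjusted 0.589). Without vehicle mice 4 and 1, the arrays farthest from the score's median, r was 0.559. Its slope on the score within treatment groups was 0.84 ± 0.34 (limma adjusted p = 0.413). With the score as a covariate the Adam8 difference was 0.69. Granulocyte and mast cell markers were lower in 8 of 13, beside 9677 of all 22180 genes. Of these 8, 3 had an unadjusted p under 0.05 (2.1% of all genes were lower at that p), though none passed after adjustment. The 3 were Kit at -0.36 ± 0.14, S100a9 at -0.45 ± 0.19 and Cxcr2 at -0.32 ± 0.14. T and NK cell markers were higher in 5 of 12.

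The Adam8 difference was 0.98 with Gpx5 as a covariate and lay between 0.81 and 1.17 when each mouse in turn was left out. It was 0.61 without prednisolone mouse 3, vehicle mouse 1 and vehicle mouse 4, which had spermatid scores above 0.2, an alternative chosen after the data had been seen.

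**Figure D2:**
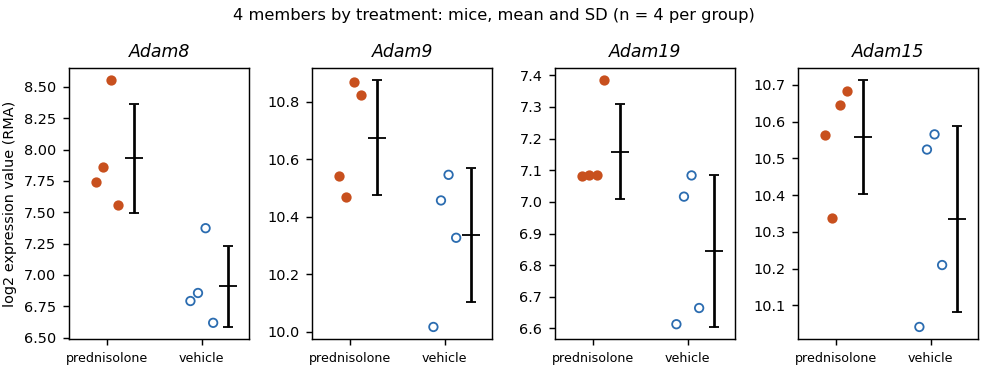
Log2 expression value (vertical axis, each panel with its own range) of Adam8, Adam9, Adam19 and Adam15 in the 4 prednisolone mice and the 4 vehicle mice, with the mean and SD of each group. The Adam8 groups are apart, at 7.56 to 8.55 in prednisolone mice and 6.62 to 7.37 in vehicle mice, while the other 3 genes overlap.

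Adam28, the second leukocyte member, is a protease described on lymphocytes and also reported in mouse epididymis. It read 8.24, 12.71, 5.81 and 5.90 in prednisolone mice 1 to 4, against 8.46, 5.85, 6.04 and 5.95 in vehicle mice 1 to 4. Prednisolone mouse 2 was far above all others, prednisolone mouse 1 and vehicle mouse 1 were intermediate and close to each other, and the remaining 5 mice were at the low end. The difference was 1.59 ± 1.45 (SE) and did not pass (limma adjusted p = 0.828). Without prednisolone mouse 2 it was 0.08. The B cell score was lowest in prednisolone mouse 2, at -0.19. It ran from -0.19 to 0.07 in prednisolone mice and from -0.04 to 0.08 in vehicle mice. The T and NK cell score was highest in prednisolone mice 1 and 2 (0.36 and 0.22), within -0.33 to 0.36 in prednisolone mice and -0.13 to 0.11 in vehicle mice. Vehicle mouse 1, the second highest in Adam28, had the lowest T and NK cell score of its group, and the part of these cells in the Adam28 values was not tested.

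Adam7, an epididymal ADAM without an active protease site that passes to sperm, varied more over the 8 mice than any other member. It read 9.15, 13.21, 5.08 and 5.82 in prednisolone mice 1 to 4. It read 13.57, 5.37, 6.65 and 13.21 in vehicle mice 1 to 4. Both groups held mice at over 13 and mice below 6, so the groups overlapped over nearly the whole range. The difference was -1.38 ± 2.37 (SE) and did not pass (limma adjusted p = 0.91). It was -3.01 without prednisolone mouse 2 and -0.09 without vehicle mouse 1, the ends of the range with each mouse left out, and -0.16 with Gpx5 as a covariate. With the macrophage score as a covariate it was 1.29.

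Adam7 followed Gpx5 across the mice of both groups. The 3 arrays with Gpx5 above 12 (prednisolone mouse 2 and vehicle mice 1 and 4) had the 3 highest Adam7 values, prednisolone mouse 1 came next and vehicle mouse 3 after it in both, and the other 3 were low in both. Pearson's r was 0.961 (exact permutation p = 0.0031, adjusted over all genes 0.30) and Spearman's rho was 0.952 (exact permutation p = 0.00114, adjusted 0.272). Without vehicle mouse 2 and prednisolone mouse 3, the arrays farthest from the Gpx5 median, r was 0.944. The permutation tests covered 96 relations of members, 32 with each of Gpx5, the spermatid score and the macrophage score. Within treatment groups, the Adam7 slope was 0.83 ± 0.09 (SE) per unit of Gpx5, which did not pass (limma adjusted p = 0.113). This adjusted p passed without prednisolone mouse 1 (0.0261) and without vehicle mouse 3 (0.0179). It did not pass with any other mouse left out, where it ran from 0.265 to 0.529. The Gpx5 slope of every one of the other 28 measured epididymis markers was positive, as it was in 8453 of 22179 genes. Of the 28, 25 had an unadjusted p under 0.05, beside 6.3% of all genes with positive slopes at that p. None of the 28 passed after adjustment. The list was chosen with earlier results of these data known, so it is no independent support.

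Adam28 had r = 0.640 with Gpx5 (exact permutation p = 0.0473, adjusted 0.339), or 0.557 without the same pair of arrays. Its slope on Gpx5 was 0.40 ± 0.12 (limma adjusted p = 0.244). Vehicle mouse 4 was low in Adam28, at 5.95, with Gpx5 at 13.61. Vehicle mouse 1, with Gpx5 at 13.78, had Adam28 at 8.46. Prednisolone mouse 2, with Gpx5 at 13.81, had it at 12.71. In the epididymis list, picked out after the values had been seen, Lcn9, an epididymal lipocalin, had a similar pattern. It read 9.99, 13.61, 5.45 and 5.59 in prednisolone mice 1 to 4, against 10.12, 5.76, 7.31 and 5.81 in vehicle mice 1 to 4. Lcn8, a neighbouring lipocalin, and Cst11, an epididymal cystatin, were likewise highest in prednisolone mouse 2 (13.50 and 12.25) and low in vehicle mouse 4 (6.64 and 4.78). These genes do not stand for the list, in which others went the other way. Among those, Lcn5 read 10.22 in prednisolone mouse 2 and 13.64 in vehicle mouse 4, and Rnase9 read 8.84 and 12.89. Adam7 was as high in vehicle mouse 4 as in prednisolone mouse 2, at 13.21 in both.

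Adam7 and Adam28 lie on chromosome 14 with a single protein-coding gene between them in RefSeq's GRCm38.p6, the ADAM-like protease gene Adamdec1, which is no member by its symbol. Adamdec1 read 5.82, 7.07, 5.85 and 5.81 in prednisolone mice 1 to 4, against 5.65, 5.81, 5.79 and 5.86 in vehicle mice 1 to 4. Its one high value was in prednisolone mouse 2, the highest in Adam28. Adam7 was also high in vehicle mice 1 and 4 (13.57 and 13.21), where Adamdec1 was not.

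**Figure D3:**
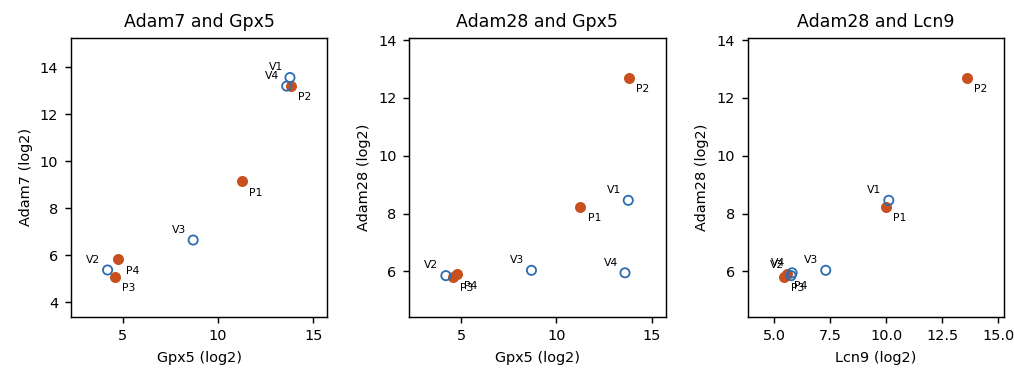
Log2 values of Adam7 against Gpx5, Adam28 against Gpx5 and Adam28 against Lcn9, 1 point per mouse, with filled points P1 to P4 for prednisolone mice 1 to 4 and open circles V1 to V4 for vehicle mice 1 to 4. Adam7 climbs with Gpx5 in both groups, while Adam28 is low in V4 despite its high Gpx5 and lines up with Lcn9.

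No member's slope on Gpx5 passed the adjusted test, nor did that of any of the 22179 genes tested (0%). At an unadjusted p under 0.05 there were 4 members (12.5%), beside 14.1% of all genes (6.3% with positive and 7.78% with negative slopes). Adam7 and Adam28 had positive slopes, and the sheddases Adam9 and Adam15 negative ones of -0.04 per unit each. Adam8 had a slope of -0.03 ± 0.03 (limma adjusted p = 0.673). Adam2, the beta subunit of fertilin on sperm, had one of -0.02 ± 0.02 (adjusted p = 0.730), and Adam3, cyritestin, one of 0.03 ± 0.06 (adjusted p = 0.860).

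Among the 7 widely expressed sheddases, 5 had the higher mean with prednisolone and none passed. Adam9, a sheddase of growth factor precursors, read 10.54, 10.47, 10.87 and 10.82 in prednisolone mice 1 to 4. It read 10.02, 10.46, 10.55 and 10.33 in vehicle mice 1 to 4. Prednisolone mice 3 and 4 were above all others, vehicle mouse 1 was lowest, and the groups overlapped. The difference was 0.34 ± 0.14 (SE; limma adjusted p = 0.791). It was 0.28 with Gpx5 as a covariate, 0.21 with the macrophage score as one, and 0.11 without the 3 arrays with spermatid scores above 0.2.

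Adam19, which cuts neuregulin precursors, read 7.08, 7.08, 7.09 and 7.38 in prednisolone mice 1 to 4, against 6.61, 7.02, 7.08 and 6.66 in vehicle mice 1 to 4. The first 3 prednisolone mice were level with the top of the vehicle range, and prednisolone mouse 4 alone was clearly above it. The difference was 0.31 ± 0.14 (SE; limma adjusted p = 0.791). Its second, dimmer probe set had a difference of -0.21, so the gene's probe sets disagree in direction. Adam15, metargidin, whose disintegrin domain binds integrins, read 10.56, 10.34, 10.64 and 10.68 in prednisolone mice 1 to 4. It read 10.04, 10.52, 10.57 and 10.21 in vehicle mice 1 to 4. The groups overlapped, the difference was 0.22 ± 0.14 (SE; limma adjusted p = 0.791), and its second probe set gave 0.28. It was 0.12 without vehicle mouse 1 and 0.053 with the macrophage score as a covariate. Adam15 and Adam9 both opposed Gpx5, with r = -0.806 and r = -0.729, each with an exact permutation p that missed after adjustment (0.305 and 0.321). Their rho was -0.667 (exact permutation p = 0.0831) for Adam15 and -0.524 (p = 0.197) for Adam9. Without the pair of arrays farthest from the Gpx5 median, r was -0.839 and -0.815. This direction was not particular to them. Slopes on Gpx5 were negative in 6 of the 7 sheddases, in 11 of 11 adipocyte markers and in 13726 of 22179 genes.

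Adam10 and Adam17 are the sheddases with the best known substrates. Adam10, which cuts Notch receptors and the amyloid precursor, ran from 9.85 to 10.15 in prednisolone mice and from 9.92 to 10.42 in vehicle mice, a difference of -0.19 ± 0.13. Adam17, the TNF converting enzyme, ran from 8.51 to 8.67 in prednisolone mice and from 8.13 to 8.82 in vehicle mice, a difference of 0.07 ± 0.14. Neither passed (limma adjusted p = 0.791 and 0.925). The direction of the Adam17 difference turned with the macrophage score as a covariate, to -0.14.

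Adam12, meltrin alpha, a protease of mesenchymal and myogenic cells, ran from 7.86 to 8.24 in prednisolone mice and from 7.41 to 8.35 in vehicle mice, a difference of 0.17 ± 0.19 (limma adjusted p = 0.858). It was -0.16 with the macrophage score as a covariate. Adam33, known in human from asthma susceptibility, averaged 7.08 ± 0.09 in prednisolone mice and 7.24 ± 0.18 in vehicle mice (SD, n = 4 each), a difference of -0.16 ± 0.11 (limma adjusted p = 0.791). The groups overlapped in Adam10, Adam17, Adam12 and Adam33 alike.

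Adam12 also went with the macrophage score. Its r was 0.866 (exact permutation p = 0.00139, adjusted 0.242) with rho = 0.905 (p = 0.00456, adjusted 0.345) and r = 0.872 without vehicle mice 4 and 1, and its slope within groups was 0.84 ± 0.20 (limma adjusted p = 0.169). No member passed for this score, while 0.456% of 22159 genes did. At an unadjusted p under 0.05 there were 4 members (12.5%), Adam12, Adam23, Adam17 and Adam8, all positive, beside 11.3% of all genes (6.78% positive and 4.54% negative). All 7 sheddases had positive slopes, as did 12005 of the 22159 genes. Mesothelial markers also had positive slopes on this score, in 6 of 6, and progenitor and fibroblast markers in 10 of 11; their part in the Adam12 relation was not tested.

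The 3 brain adhesion members had differences of 0.07 to 0.12. Adam22, a receptor for the secreted protein LGI1 at synapses, Adam11 and Adam23 each had the higher mean with prednisolone, and none passed. Adam22 ran from 5.56 to 5.81 in prednisolone mice and from 5.21 to 5.74 in vehicle mice. Adam11 ran from 6.20 to 6.32 in prednisolone mice and from 6.04 to 6.40 in vehicle mice. Adam23 ran from 7.91 to 8.32 in prednisolone mice and from 7.78 to 8.87 in vehicle mice, where vehicle mouse 3 alone was above 8.

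**Figure D4:**
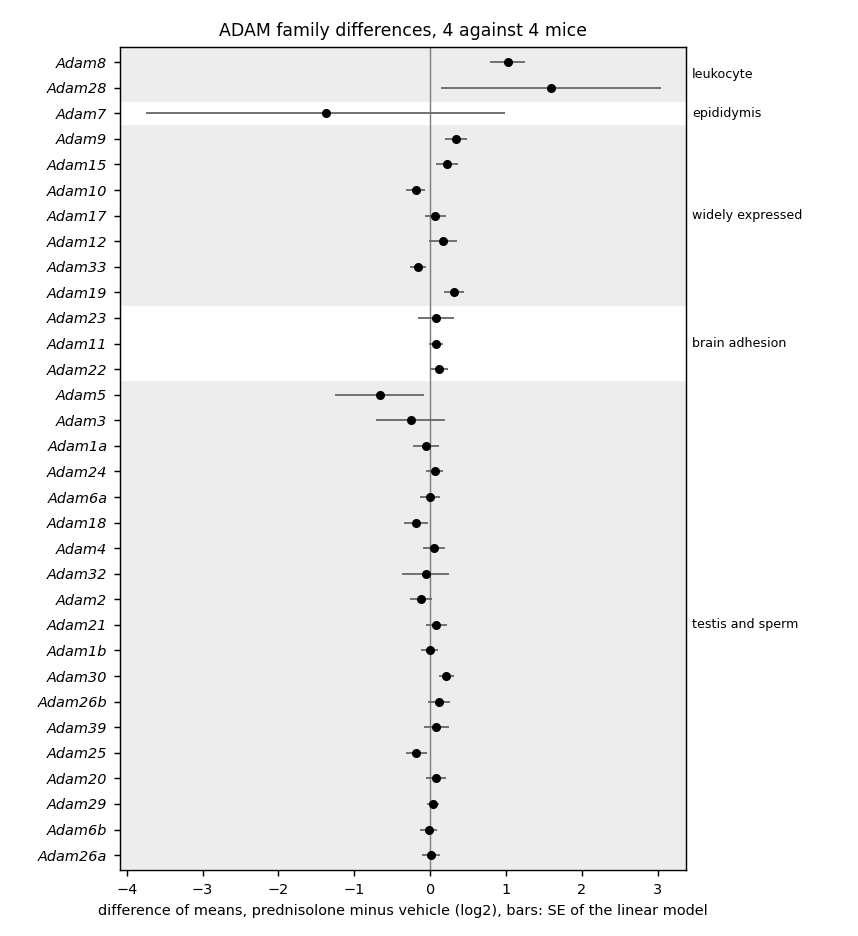
Difference of group means, prednisolone minus vehicle (horizontal axis, log2), of the 32 members by role, with the SE of the linear model as bars. Adam8 is at 1.02 with a short bar, Adam28 and Adam7 have bars of 1.45 and 2.37 each way, Adam5 is at -0.66, and the others lie within 0.35 of 0.

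Of the 19 testis and sperm members, 9 had the higher mean with prednisolone and 10 the lower, and none passed. Most were dim: 17 had a mean below 5.82, the limit of a filter on dim genes tried as an alternative. Adam5, a sperm surface member, read 5.83, 5.45, 6.69 and 5.43 in prednisolone mice 1 to 4, against 7.91, 4.93, 6.18 and 7.03 in vehicle mice 1 to 4. The difference was -0.66 ± 0.59 (SE; limma adjusted p = 0.825). Leaving out vehicle mouse 1 gave -0.20 and leaving out vehicle mouse 2 gave -1.19, and with the spermatid score as a covariate it was -0.16. Adam3, cyritestin, which sperm need to enter the oviduct in mice, read 5.46, 5.51, 6.78 and 5.85 in prednisolone mice 1 to 4. It read 7.39, 5.36, 5.68 and 6.20 in vehicle mice 1 to 4. The difference was -0.26 ± 0.46 (SE; limma adjusted p = 0.913). In both genes vehicle mouse 1 was highest, vehicle mouse 2 lowest, and the groups overlapped.

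Adam2 ran from 4.52 to 5.23 in prednisolone mice and from 4.90 to 5.17 in vehicle mice, a difference of -0.12 ± 0.15 (limma adjusted p = 0.867). Adam30, a testis member, ran from 3.86 to 4.19 in prednisolone mice and from 3.70 to 3.95 in vehicle mice, a difference of 0.21 ± 0.10 (limma adjusted p = 0.791). Over the 17 members other than Adam3 and Adam5, differences ran from -0.18 to 0.21 and means from 2.64 to 5.65. Adam1a and Adam1b, Adam6a and Adam6b, and Adam26a and Adam26b are close copies lying side by side, and how far their probe sets share signal was not tested.

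Adam3 and Adam5 followed the spermatid score. With treatment as a term, Adam5 changed by 1.62 ± 0.21 (SE) per unit of score (limma adjusted p = 0.0453) and Adam3 by 1.27 ± 0.16 (adjusted p = 0.0404). These 2 members (6.25%) passed, beside 0.162% of 22156 genes (0.158% with positive and 0.00451% with negative slopes). At an unadjusted p under 0.05 there were 7 of 32 members, these 2 with Adam18, Adam32, Adam2 and Adam30 with positive slopes and Adam4 with a negative one, beside 8.42% of all genes (3.9% positive and 4.52% negative). Both calls rest on the whole set of arrays. Leaving out any 1 of 7 mice removed both, and leaving out prednisolone mouse 3 kept Adam5 alone; the adjusted p then ran from 0.0195 to 0.445 for Adam5 and from 0.0565 to 0.382 for Adam3, with slopes of 1.31 to 2.02 and 1.05 to 1.38.

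Over the 8 mice, r with the spermatid score was 0.949 for Adam5 (exact permutation p = 0.000471, adjusted over all genes 0.178; rho = 0.976, p = 0.000397, adjusted 0.338) and 0.952 for Adam3 (exact permutation p = 0.000868, adjusted 0.197; rho = 0.833, p = 0.0154, adjusted 0.650). Without vehicle mouse 1 and prednisolone mouse 3, the arrays farthest from the score's median, r was 0.974 for Adam5 and 0.795 for Adam3. The epididymis marker score was high in vehicle mice 1 and 4 (2.98 and 2.09), as Adam5 was. The epididymis score was 2.30 in prednisolone mouse 2, where Adam5 was at 5.45. It was -1.98 in prednisolone mouse 3, where Adam5 was at 6.69. The tissue source of the Adam5 values was not tested.

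Adam18, Adam3, Adam5, Adam32 and Adam9 are consecutive protein-coding genes on chromosome 8 in RefSeq's GRCm38.p6, and 12 of the 32 members lie on that chromosome. Adam18, a sperm member, read 4.78, 4.93, 5.25 and 4.68 in prednisolone mice 1 to 4, against 5.43, 4.82, 5.02 and 5.10 in vehicle mice 1 to 4. Adam32, another, read 4.50, 4.59, 5.78 and 4.94 in prednisolone mice 1 to 4, against 5.54, 4.68, 4.69 and 5.15 in vehicle mice 1 to 4. Prednisolone mouse 3 and vehicle mouse 1 were the 2 highest in Adam18, Adam32 and Adam3. Adam18 and Adam32 were picked out after their values had been seen. Their slopes on the spermatid score were 0.41 ± 0.08 and 0.79 ± 0.15 and did not pass (limma adjusted p = 0.162 and 0.146). Over the 8 mice r was 0.956 for Adam18 (exact permutation p = 0.000322, adjusted 0.178; rho = 0.881, p = 0.00724) and 0.881 for Adam32 (exact permutation p = 0.0061, adjusted 0.363; rho = 0.690, p = 0.0694). Without vehicle mouse 1 and prednisolone mouse 3, r was 0.840 for Adam18 and 0.619 for Adam32. Adam9, next to Adam32, had r = -0.365 with the score (exact permutation p = 0.380; rho = -0.167, p = 0.703), or -0.499 without vehicle mouse 1 and prednisolone mouse 3.

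**Figure D5:**
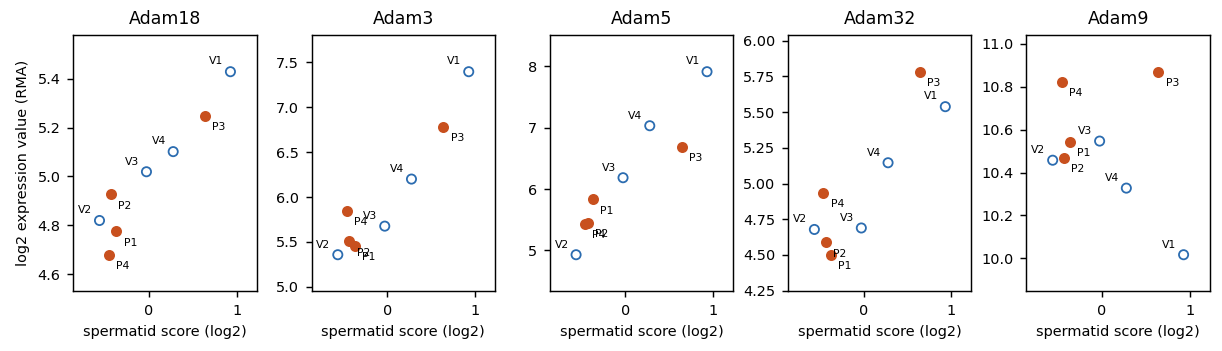
Log2 values of the chromosome 8 neighbours Adam18, Adam3, Adam5, Adam32 and Adam9 (vertical axes, each with its own range) against the spermatid marker score (mean centred log2 value of 24 genes), with filled points P1 to P4 for prednisolone mice and open circles V1 to V4 for vehicle mice. The first 4 genes are high in V1 and P3, and Adam9 is lowest in V1 and highest in P3.

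The proteins that ADAMs work with were counted from lists chosen with earlier results of these data known, and none of their genes passed for treatment (limma, adjusted p of 0.791 for each gene named here). For the counts that follow, 12503 of all 22180 genes were higher with prednisolone and 9677 lower. Of 9 iRhom and tetraspanin genes, 8 were higher. Tspan17, an ADAM10 tetraspanin, was at 0.60 ± 0.19 and Rhbdf2, the iRhom of ADAM17 in leukocytes, at 0.30 ± 0.14. Of 5 metalloprotease inhibitors, 4 were higher, with Timp4, an inhibitor of metalloproteases abundant in fat, at 0.65 ± 0.30. Among 4 proprotein convertases 1 was higher, and Furin was at -0.16 ± 0.10. Of 20 shed cytokines, receptors and adhesion molecules, 11 were higher, with the hyaluronan receptor Cd44 at 0.57 ± 0.22, App at 0.30 ± 0.11 and Tnf at 0.29 ± 0.12. Of 7 ligands of the EGF family, 5 were higher, and Egf itself was at -0.89 ± 0.39. Egf was 6.04 to 6.41 in the prednisolone mice and in vehicle mice 2 and 3 alike, and 8.21 and 7.42 in vehicle mice 1 and 4. Of 15 sperm ADAM chaperones and partners, 9 were higher, while Ace, whose loss in mice alters ADAM3 on sperm, was at -1.21 ± 0.57. Ace was 9.91 to 10.30 in the prednisolone mice and in vehicle mice 2 and 3 alike. It was 12.72 and 12.26 in vehicle mice 1 and 4, both high in Gpx5. Prednisolone mouse 2, with Gpx5 at 13.81, had Ace at only 10.30.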

How the data were processed

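Per the labels' protocols, total RNA (100 ng) of each fat pad was labelled and hybridised to 1 array, and the deposited values are log2 expression values that the authors made with RMA in Affymetrix Expression Console. Per the submitters' processing notes, Partek 6.6 was among the tools. The build behind the probe sets is not given in the sources used here. Of 41345 probe sets, 23521 had 1 gene symbol, 1814 several and 16010 none. Several-symbol probe sets were not used or tested, including 2 that name Adam34 together with Gm5347. In 1 of these 2 the groups did not overlap. It read 4.81, 4.54, 4.30 and 4.92 in prednisolone mice 1 to 4, against 3.29, 3.50, 3.83 and 3.66 in vehicle mice 1 to 4. In the other, which was dim too, the groups overlapped. The probe set with the highest mean stood for a gene. No filter on dim genes was applied. Array medians were 6.09 to 6.13, and 8 arrays limit the precision.

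All 8 arrays were fitted over 22180 genes with limma 3.58.1 (R 4.3.3; lmFit, eBayes) and Benjamini-Hochberg adjustment at 0.05, for treatment, and, with treatment as a term, for Gpx5, the spermatid score and the macrophage score (genes of a score left out of its own fit). The fit was tested on simulated data with independent noise. The spread per gene was capped there, so that test does not cover members as variable as Adam7 and Adam28. Permutation p-values are two-sided, exact over all orders of the 8 arrays, and adjusted over all genes; 4 against 4 mice cannot give an exact p below 0.0286. Members and marker lists were chosen with earlier results of these data known. Full statistics are given for the 5 members with the lowest p, the 5 with the largest differences and a list of the best known members. Same-numbered mice did not deviate together (correlations of -0.14, -0.49, 0.11 and -0.23), so numbers were not taken as pairs. Alternatives covered filters, probe set choice, normalization, array weights, covariates, the replicate block and left-out arrays.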

Additional observations from a re-analysis of the deposited data

Results flagged for a closer look

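In 7 of the 64 combinations of a member and a group of 4 mice, 1 mouse lay far from the other 3 by Dixon's test, which chance does in about 1 of 20 groups. Adam28 was 8.46 in vehicle mouse 1, where the other vehicle mice had 5.85 to 6.04. Adam19 was 7.38 in prednisolone mouse 4, against 7.08 to 7.09 in the others of its group. The brain member Adam23 was 8.87 in vehicle mouse 3, where the others had 7.78 to 7.97, and Adam22 was 5.81 in prednisolone mouse 4, where the others had 5.56 to 5.60. Adam11 was 6.20 in prednisolone mouse 4, below the 6.31 to 6.32 of the others. Of the dim testis members, Adam39 was 3.69 in vehicle mouse 2 (others 3.22 to 3.29) and Adam25 was 3.50 in vehicle mouse 3 (others 3.06 to 3.12).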

How the results depend on the processing

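No member passed for treatment under any of the 20 alternatives, the replicate block included, with which Adam8 stayed at 1.02 (adjusted p = 0.93). The count of members at an unadjusted p under 0.05 was 1 without the arrays with Gpx5 above 12, 1 without those with a spermatid score above 0.2 (both chosen after seeing the data), and 1 to 5 with each mouse left out (1 without prednisolone mouse 3, 5 without vehicle mouse 2). Without the Gpx5-high arrays the difference turned for Adam7 (0.68), Adam5 (0.43), Adam12 (-0.039), Adam17 (-0.14), Adam2 (0.046) and Adam3 (0.51). Without the spermatid-high arrays it turned for Adam15 (-0.016), Adam7 (3.39), Adam5 (0.0136), Adam12 (-0.13), Adam17 (-0.17) and Adam3 (0.087). With the macrophage covariate it turned for Adam7 (1.29), Adam12 (-0.16), Adam17 (-0.14) and Adam3 (0.10), and with the spermatid covariate for Adam3 (0.13). With each mouse left out, it ran from -0.059 to 0.17 for Adam17 and from -0.55 to 0.15 for Adam3, and the Gpx5 slope from -0.032 to 0.0051 for Adam2 and from -0.033 to 0.078 for Adam3. The count called on Gpx5 was 1 (Adam7) without the treatment term, with array weights and with the epididymis score, and 0 to 1 with each mouse left out. On the spermatid score it was 1 without genes of a mean below 5.82, which leaves 14 members to test, and 0 to 1 with each mouse left out. On the macrophage score it was 10 with array weights, whose estimate did not converge. The cause of these changes was not tested. The share of all genes called under each alternative was not counted, so the member counts cannot be set against it. With 4 mice a group and RMA values that give no background level, the order of the dim testis members' arrays is limited by signal.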
